A study of Mus musculus with 12 samples.

Results

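The enzymes that break down amino acids and feed the one-carbon cycle were examined in the liver RNA of mice given valproic acid with or without obeticholic acid. The set holds 45 genes, found by symbol among the 34986 genes of the authors' table, and grouped here into 7 pathways. All 45 were measured and all 45 passed the filter on low values. The 12 libraries came from livers of female C57BL/6 mice aged 16 weeks, each library from 1 mouse. In the VPA_OCA group, 6 mice received valproic acid (VPA) together with obeticholic acid (OCA). In the VPA group, 6 mice received VPA alone. VPA is a drug against epilepsy with known liver toxicity, and OCA is a bile acid derivative that activates the farnesoid X receptor (FXR), the nuclear receptor for bile acids. Both groups carried the VPA treatment, so each difference is that of added OCA in VPA-treated mice. The labels used here state no dose or duration. Untreated mice and mice given OCA alone were not analysed here.

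The liver is the main site at which surplus amino acids are broken down. Histidine is taken apart by histidine ammonia-lyase, urocanate hydratase, imidazolonepropionase and formimidoyltransferase cyclodeaminase, the last of which hands a carbon unit to folate. Tyrosine and tryptophan are opened by dioxygenases, the branched-chain amino acids by a mitochondrial dehydrogenase complex, and glycine by a cleavage system that also charges folate. Methionine is activated to S-adenosylmethionine, the methyl donor of the cell, whose use yields homocysteine, and betaine can return a methyl group to homocysteine. Several of these enzymes are zonated along the liver lobule, with histidine ammonia-lyase a classical periportal enzyme.

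Values are the authors' normalized counts, which are read counts scaled per library and which summed to 20236900 to 22087711 per library. Depth, estimated by taking the commonest low value as 1 read, was deepest in VPA_OCA replicate 1 (37766890 reads), shallowest in VPA replicate 3 (17879222 reads), and 19683964 to 22021646 reads elsewhere. The error after each mean is the SD over the 6 libraries of a group. Fold changes are differences of log2(normalized count + 1), given ± SE. Adjusted p-values are from limma with Benjamini-Hochberg adjustment over the 19006 genes that passed the filter, with 0.05 as the threshold. The 8 hepatocyte markers were detected in every library, at a summed 107791 to 173330 FPKM in VPA_OCA and 124308 to 167197 FPKM in VPA. FPKM is a read count scaled by gene length and library total. Of 5 kidney tubule markers, 4 were at 0 in all libraries. VPA replicates 4 and 5 held skeletal muscle transcripts, whose 6 markers summed to at most 2.20 FPKM in VPA_OCA and to up to 24.2 FPKM in VPA.

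Libraries numbered 1 to 3 and those numbered 4 to 6 stood apart in both groups. On the first principal component, taken over genes whose log2 values averaged above 5, every library of the first set lay at -10.3 or below and every library of the second at 16.3 or above. No batch is given for these numbers in the labels used here. Values within each set, with 3 mice per group, are therefore given beside the pooled ones.

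Per length, the set spanned the range from abundant liver transcripts to nearly silent ones. Hpd, which encodes the tyrosine-pathway enzyme 4-hydroxyphenylpyruvate dioxygenase, was the highest, with 2814 ± 485 FPKM in VPA_OCA and 3212 ± 374 FPKM in VPA. Ahcy (S-adenosylhomocysteine hydrolase), Gnmt (glycine N-methyltransferase) and Mat1a (methionine adenosyltransferase) followed, with means over all 12 libraries of 2266, 1617 and 1519 FPKM. These 3 methionine-cycle genes thus stood above every other member except Hpd. At the low end, Phgdh and Psat1, which make serine anew from a glycolytic intermediate, averaged 0.238 and 0.627 FPKM. Together the 45 transcripts made up 1.77% to 2.77% of all normalized counts in VPA_OCA libraries, against 2.31% to 2.61% in VPA libraries. The VPA_OCA libraries parted within that range, with 2.59% to 2.77% in numbers 1 to 3 and 1.77% to 2.22% in numbers 4 to 6.

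**Figure D1:**
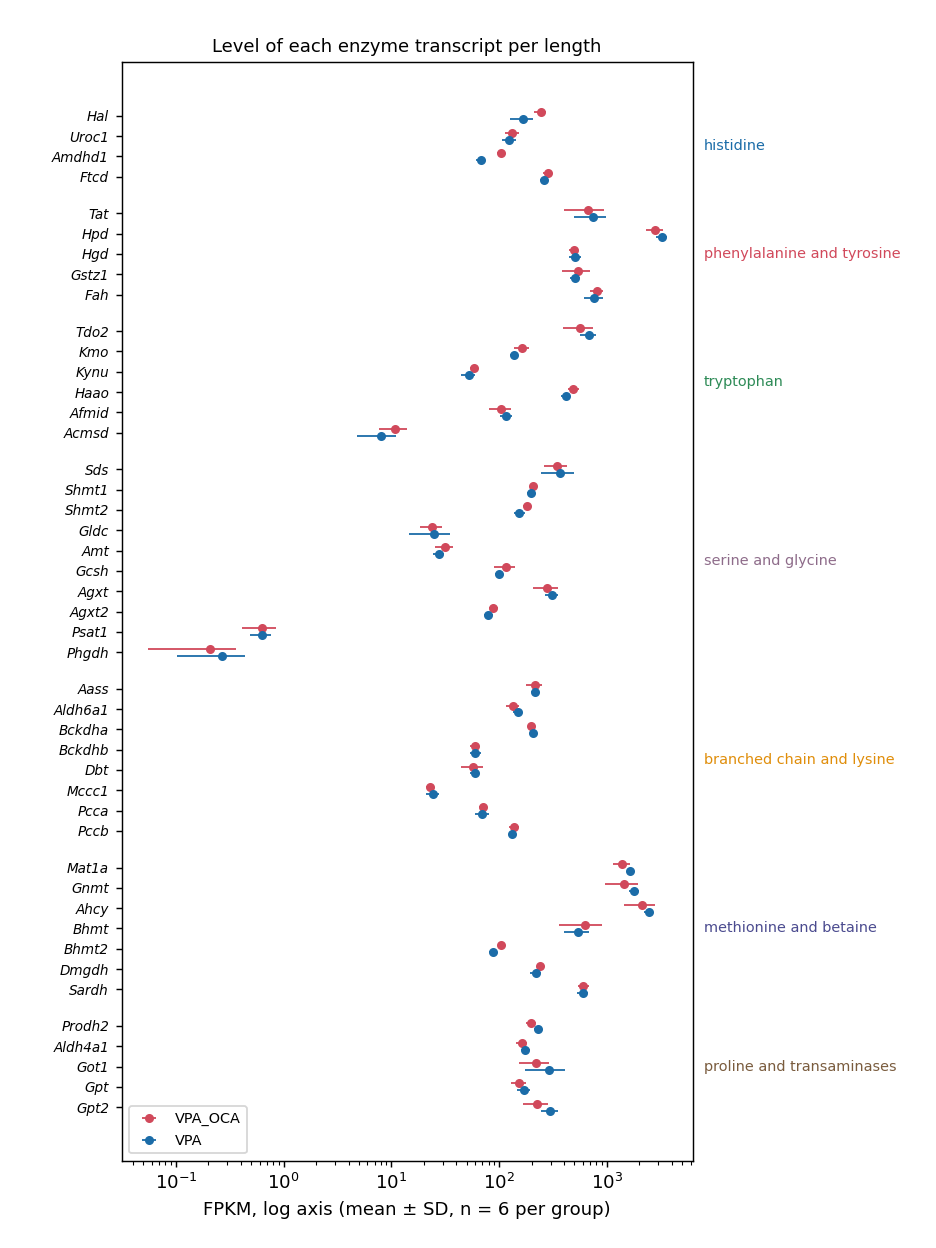
Mean FPKM ± SD of each of the 45 transcripts in VPA_OCA and VPA livers (n = 6 per group, log axis), ordered by pathway. Levels run from 0.238 FPKM for Phgdh to 3013 FPKM for Hpd as means over all 12 libraries, and the groups lie close together for most genes.

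Of the 45 genes, 1 rose with OCA and none fell at an adjusted p under 0.05 by limma, where 0.721% of all 19006 genes passed in either direction, 0.442% higher and 0.279% lower. In the fit with the replicate block the same member passed, with 1.1% of all genes. The gene that rose was Amdhd1, in the histidine pathway. The remaining 44 did not pass. The fold changes of the 45 had a median of -0.02 on the log2 scale and ran from -0.44 for Gpt2 to 0.61 for Amdhd1, with 22 above zero and 23 below, beside a median of -0.0005 over all genes. At an unadjusted p under 0.05 there were 7 members, beside 9.55% of all genes. With a term for the library numbers (1 to 3 against 4 to 6) in the model, 2 members rose, Amdhd1 and Hal, where 2.13% of all genes passed, 1.34% higher. In the authors' deposited table, 3 of the 43 members with an adjusted p stood under 0.05, beside 5.57% of the 12517 genes it tests. These were Amdhd1 at 5.72e-05, Hal at 0.00175 and Gpt2 at 0.0393. The groups did not overlap, with all 6 VPA_OCA values above all 6 VPA values, for 2 members, Amdhd1 and Bhmt2, and for 0.916% of all genes. No member had all 6 VPA_OCA values below all 6 VPA values, a pattern seen in 0.526% of all genes.

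**Figure D2:**
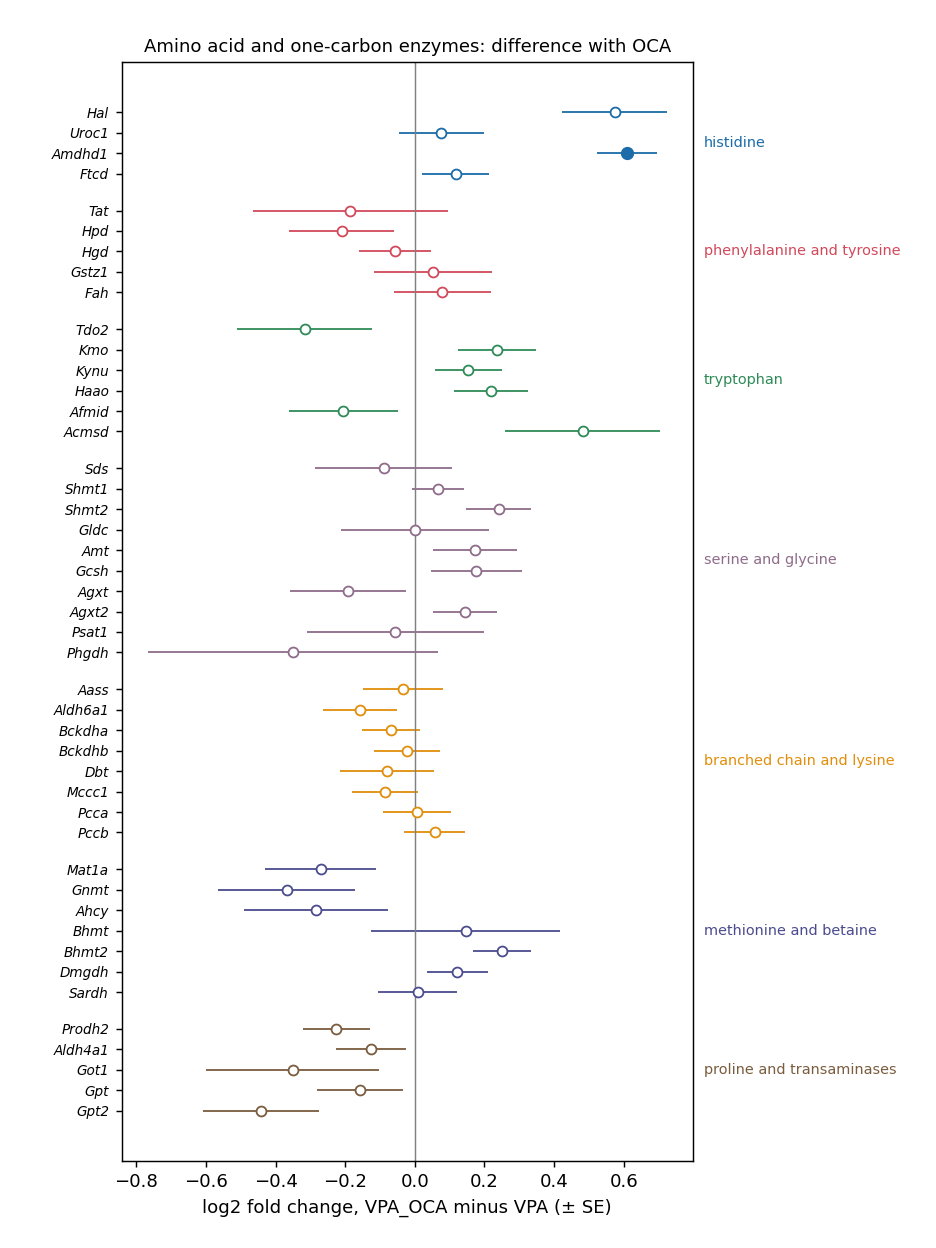
Log2 fold change of each of the 45 genes, VPA_OCA minus VPA, with SE bars (n = 6 per group), grouped by pathway. Amdhd1 at 0.61 and Hal at 0.57 lie farthest to the right, Gpt2 at -0.44 farthest to the left. The filled point, Amdhd1, is the only one of the 45 past the threshold.

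The histidine pathway held the change that passed. Amdhd1, which encodes imidazolonepropionase, the third enzyme of the pathway, had normalized counts of 4917 to 5891 in VPA_OCA livers (median 5278), against 3098 to 3832 in VPA livers (median 3473). The lowest VPA_OCA library lay above the highest VPA library. The means were 5305 ± 372 in VPA_OCA and 3480 ± 303 in VPA, a log2 fold change of 0.61 ± 0.09, or 1.53-fold, with an adjusted p of 0.0022 by limma. It passed in each of the 12 fits that left out a library, with adjusted p from 0.00248 to 0.00869 by limma. Within numbers 1 to 3 the fold change was 0.71 (adjusted p 0.022) and within numbers 4 to 6 it was 0.51 (adjusted p 0.0444), both by limma.

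Hal, which encodes histidine ammonia-lyase and catalyses the first and committed step, had 9232 to 13040 normalized counts in VPA_OCA (median 12220) and 5892 to 10260 in VPA (median 7996). The groups overlapped only through VPA_OCA replicate 2 at 9232, which lay below VPA replicates 4 and 6 at 10260 and 9887. The means were 11749 ± 1458 in VPA_OCA and 8021 ± 1865 in VPA. The log2 fold change was 0.57 ± 0.15, nearly that of Amdhd1, but the adjusted p was 0.115 by limma. With the library-number term it passed, at an adjusted p of 0.0148 by limma. In numbers 1 to 3 the VPA_OCA libraries averaged 11357 and the VPA libraries 6471. In numbers 4 to 6 the VPA_OCA libraries averaged 12140 and the VPA libraries 9572, so that the sets lay farther apart within VPA than within VPA_OCA. In each set all 3 VPA_OCA values lay above all 3 VPA values, and the fold change was 0.80 in numbers 1 to 3 (adjusted p 0.0497 by limma) and 0.34 in numbers 4 to 6 (adjusted p 0.28 by limma).

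The steps on either side of Amdhd1 did not pass. Uroc1, the second enzyme (urocanate hydratase), averaged 9597 ± 1337 in VPA_OCA and 9097 ± 1193 in VPA, and its log2 fold change of 0.08 had a 95% interval of -0.18 to 0.34. Ftcd, the last enzyme and the link to folate, had 9307 to 12080 normalized counts in VPA_OCA (median 10680) and 8863 to 10850 in VPA (median 9807). Its groups overlapped over most of their ranges, and the log2 fold change was 0.12 ± 0.10 with an adjusted p of 0.787 by limma. Within numbers 1 to 3 all 3 VPA_OCA values of Ftcd lay above all 3 VPA values. The fold change there was 0.26 (adjusted p 0.433 by limma), against -0.03 within numbers 4 to 6. Ftcd was the most abundant of the 4 per length, at 283 ± 29.0 FPKM in VPA_OCA and 259 ± 19.5 FPKM in VPA. The 4 transcripts together took 0.176% ± 0.0174 of normalized counts in VPA_OCA and 0.142% ± 0.0188 in VPA. Of the 8 periportal hepatocyte markers, 0 passed in the fit with group alone, and their summed level was 2602 to 4108 FPKM in VPA_OCA and 2780 to 3855 FPKM in VPA. The median fold change of the 8 was -0.02, from -0.62 for G6pc to 0.44 for Cyp2f2. With the library-number term Cyp2f2 and Ctsc (0.37) were higher in VPA_OCA, but neither passed in the replicate block (adjusted p 0.0666 and 0.0655 by limma). Their part in the histidine-pathway values was not tested, and in bulk liver RNA a different number of cells of a kind and a different RNA level per cell cannot be told apart.

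Hal and Amdhd1 are neighbours, on chromosome 10 of GRCm38. Hal lies at chr10:93488768-93519304 on the plus strand and Amdhd1 at chr10:93523338-93540033 on the minus strand, so that they are transcribed towards each other, with 4033 bases between their ends. The genes flanking the pair did not pass. Lta4h, which encodes leukotriene A4 hydrolase, averaged 607 ± 52.2 normalized counts in VPA_OCA and 579 ± 46.2 in VPA (log2 fold change 0.07). On the other side, next to the Amdhd1 start, Ccdc38 begins at chr10:93540632 on the plus strand. It was close to silent, at 11.6 ± 3.87 in VPA_OCA and 4.23 ± 2.40 in VPA (1.44, adjusted p 0.212 by limma). Its groups did not overlap, with VPA_OCA at 6.22 or more and VPA at 6.05 or less, as for 0.916% of all genes. Snrpf, a spliceosome gene, averaged 171 ± 24.4 in VPA_OCA and 159 ± 15.3 in VPA (0.10).

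The 250 bases before the annotated start of both genes are shown because these were the members that rose, Hal with the library-number term. They are from RefSeq on build GRCm38.p6 and read 5′ to 3′ on the strand of the gene, at chr10:93488518-93488767 on the plus strand for Hal and chr10:93540034-93540283 on the minus strand for Amdhd1. Capitals mark exact matches, on either strand, to any of 6 motifs: the nuclear receptor half-site AGGTCA, its inverted repeat with a 1-base spacer AGGTCANTGACCT (the arrangement best known for FXR), its direct repeat AGGTCANAGGTCA, the cyclic AMP response element TGACGTCA, CCAAT, and TATAA.
Hal: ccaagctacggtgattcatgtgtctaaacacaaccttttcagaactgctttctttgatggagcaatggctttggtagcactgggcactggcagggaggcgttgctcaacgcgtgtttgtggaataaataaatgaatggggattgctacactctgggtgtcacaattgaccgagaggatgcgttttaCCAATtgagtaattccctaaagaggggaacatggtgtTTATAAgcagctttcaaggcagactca
Amdhd1: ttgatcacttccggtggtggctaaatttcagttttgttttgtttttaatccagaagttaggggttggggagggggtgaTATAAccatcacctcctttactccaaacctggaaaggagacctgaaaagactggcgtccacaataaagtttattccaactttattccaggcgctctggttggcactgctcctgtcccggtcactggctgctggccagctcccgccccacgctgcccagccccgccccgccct
Hal held a CCAAT match beginning 64 bases before the start, and TTATAA, which matches TATAA on both strands, beginning 27 bases before it. Amdhd1 held TATAA beginning 172 bases before its start and no other match. Over all 32851 RefSeq windows, which also take in 50 bases after the start, AGGTCA occurred in 16.3%, CCAAT in 37.4%, TATAA in 24.9%, TGACGTCA in 1.79%, the inverted repeat in 0.00913% and the direct repeat in 0.0396%. Among the 46 windows of the 40 members that had an entry, 41.3% held AGGTCA, 58.7% CCAAT and 26.1% TATAA, and none held either repeat or TGACGTCA. A match describes letters in a window and says nothing of binding.

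**Figure D3:**
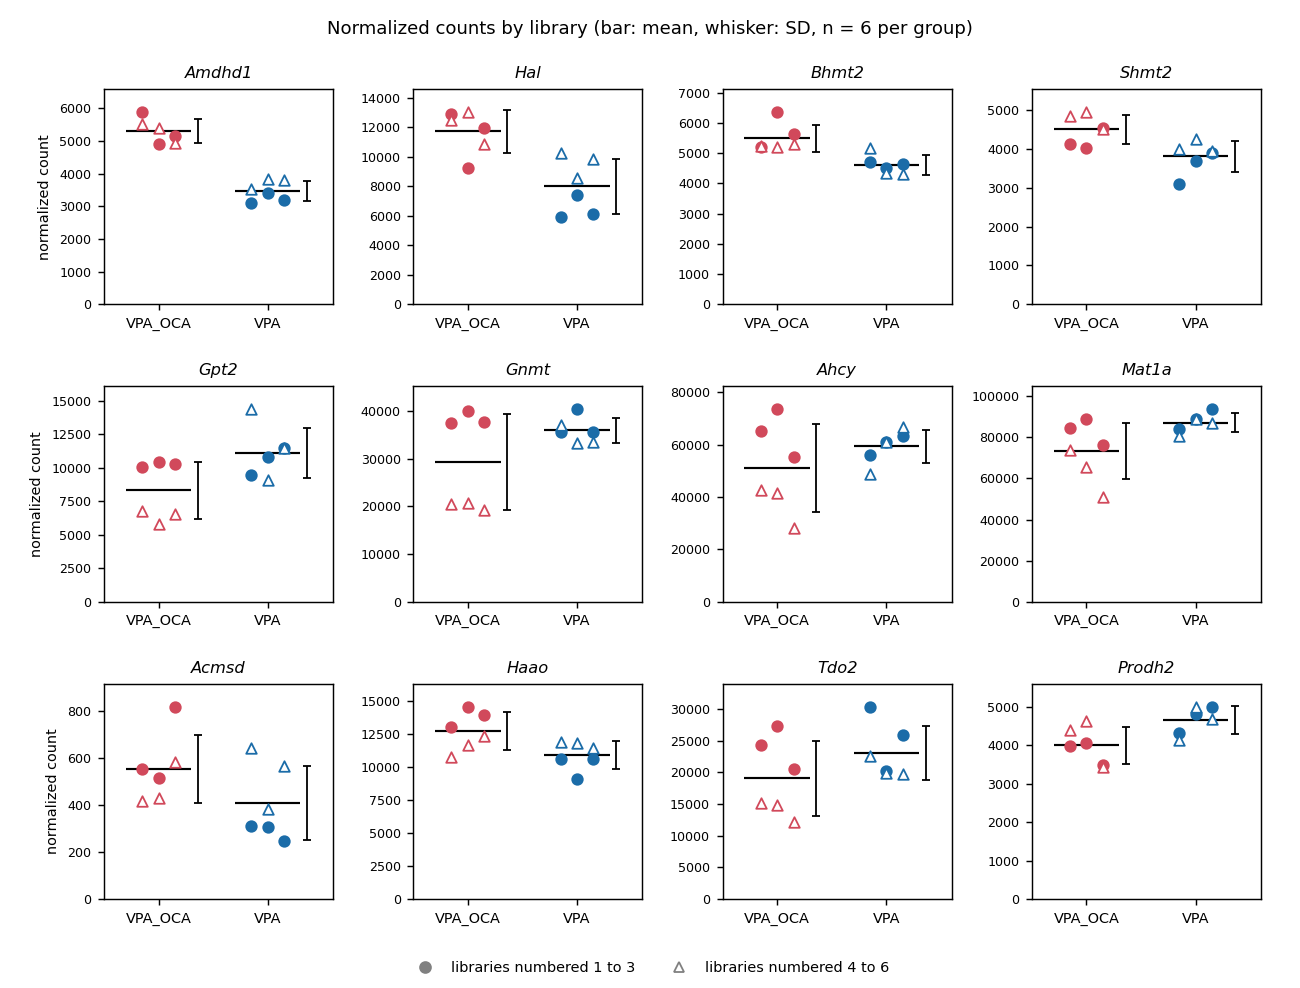
Normalized counts of selected members in each library, VPA_OCA left and VPA right, with bars at the mean and whiskers of 1 SD (n = 6 per group). Filled circles are libraries numbered 1 to 3 and open triangles those numbered 4 to 6. Amdhd1 separates the groups completely, at 4917 or more against 3832 or less, while Gnmt and Gpt2 part only among the triangles.

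None of the 5 tyrosine-pathway members passed, and their fold changes had a median of -0.06. Hpd, the second step of tyrosine breakdown, had 30450 to 51450 normalized counts in VPA_OCA (median 42760) and 42070 to 56940 in VPA (median 48860). The VPA_OCA libraries reached lower, down to 30450 in replicate 6, but the groups overlapped. Its log2 fold change was -0.21 ± 0.15 with an adjusted p of 0.737 by limma. Within numbers 4 to 6 all 3 VPA_OCA values lay below all 3 VPA values, with a fold change of -0.47, against 0.05 within numbers 1 to 3.

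Tat, the hormone-responsive tyrosine aminotransferase that opens the pathway, varied widely among mice of either group, with 12140 to 34130 normalized counts in VPA_OCA (median 21670) and 12260 to 37050 in VPA (median 24940), and the 95% interval of its fold change was -0.78 to 0.41. Hgd, homogentisate dioxygenase, averaged 11882 ± 908 in VPA_OCA and 12400 ± 1461 in VPA. Gstz1, maleylacetoacetate isomerase, averaged 18373 ± 5515 in VPA_OCA and 17217 ± 2106 in VPA. Fah, the fumarylacetoacetase of the last step, averaged 13038 ± 1827 in VPA_OCA and 12444 ± 2451 in VPA. The pooled fold changes of these 3 lay between -0.06 and 0.08. Within numbers 4 to 6 all 3 VPA_OCA values of Hgd lay below all 3 VPA values. Its fold change there was -0.27, against 0.15 within numbers 1 to 3.

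None of the 6 tryptophan members passed, though 4 leaned upward and the median fold change was 0.19. Tdo2, tryptophan 2,3-dioxygenase, the entry step of the liver, leaned the other way. It had 12180 to 27300 normalized counts in VPA_OCA (median 17845) and 19670 to 30350 in VPA (median 21395). Its VPA_OCA libraries were low in numbers 4 to 6, at 12180 to 15210, all below the VPA minimum. The pooled log2 fold change was -0.32 ± 0.19 (adjusted p 0.679 by limma), with -0.07 in numbers 1 to 3 and -0.56 in numbers 4 to 6 (adjusted p 0.121 by limma). Afmid, the next enzyme, averaged 2605 ± 632 in VPA_OCA and 2946 ± 404 in VPA.

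The later enzymes of the kynurenine route stood higher in the VPA_OCA libraries numbered 1 to 3. Kmo, kynurenine 3-monooxygenase, had 4748 to 7227 normalized counts in VPA_OCA (median 5676) and 4417 to 5547 in VPA (median 5177). The 2 highest VPA_OCA values, 7121 and 7227, belonged to replicates 1 and 2. The log2 fold change was 0.24 ± 0.11 with an adjusted p of 0.525 by limma, and it was 0.40 in numbers 1 to 3 and 0.07 in numbers 4 to 6. Haao, 3-hydroxyanthranilate dioxygenase, had 10760 to 14550 in VPA_OCA (median 12660) and 9076 to 11890 in VPA (median 11040). It parted completely in numbers 1 to 3 with a fold change of 0.46 and overlapped in numbers 4 to 6 with -0.02, and the pooled value was 0.22 ± 0.11 (adjusted p 0.539 by limma). Kynu, kynureninase, averaged 1941 ± 149 in VPA_OCA and 1754 ± 240 in VPA, a fold change of 0.15.

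Acmsd, which encodes the decarboxylase that diverts the pathway away from NAD synthesis, was the least abundant tryptophan member. It had 419 to 818 normalized counts in VPA_OCA (median 534) and 247 to 642 in VPA (median 347). In numbers 1 to 3 the VPA_OCA libraries had 514 to 818 and the VPA libraries 247 to 310, without overlap. In numbers 4 to 6 the VPA_OCA libraries had 419 to 582 and the VPA libraries 385 to 642. The fold change was 1.10 ± 0.18 in the first set (adjusted p 0.022 by limma) and -0.13 ± 0.19 in the second (adjusted p 0.857 by limma). Pooled, it was 0.48 ± 0.22 with an adjusted p of 0.514. The difference between the sets was -1.23 ± 0.29, with an unadjusted p of 0.000715 and an adjusted p of 0.272 by limma, so an unequal effect was not established over all genes.

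Of the 10 serine and glycine enzymes none passed, 6 had fold changes above zero and the median was 0.03. The member nearest to passing was Shmt2, the mitochondrial serine hydroxymethyltransferase, which converts serine to glycine and charges folate. It had 4030 to 4944 normalized counts in VPA_OCA (median 4527) and 3094 to 4263 in VPA (median 3908). Only VPA replicate 5, at 4263, reached into the VPA_OCA range, and within each number set the groups did not overlap. The log2 fold change was 0.24 ± 0.09 with an adjusted p of 0.389 by limma, and it was 0.25 and 0.23 in the sets of numbers 1 to 3 and 4 to 6. Its cytosolic counterpart Shmt1 averaged 4775 ± 112 in VPA_OCA and 4569 ± 286 in VPA, a fold change of 0.07.

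Sds, serine dehydratase, was the most abundant of this group per length, at 343 ± 83.8 FPKM in VPA_OCA and 371 ± 125 FPKM in VPA. It had 4786 to 8646 normalized counts in VPA_OCA (median 6048) and 4482 to 10520 in VPA (median 6328). The groups overlapped throughout, and the log2 fold change was -0.09 ± 0.20 (adjusted p 0.95 by limma). The groups overlapped for the glycine cleavage system as well. Gldc, its decarboxylase, averaged 1909 ± 422 in VPA_OCA and 1972 ± 774 in VPA, Amt, its aminomethyltransferase, 770 ± 153 in VPA_OCA and 675 ± 61.9 in VPA, and Gcsh, its carrier protein, 2244 ± 548 in VPA_OCA and 1948 ± 161 in VPA. Agxt, which detoxifies glyoxylate to glycine, averaged 5767 ± 1551 in VPA_OCA and 6428 ± 855 in VPA, and Agxt2, a mitochondrial aminotransferase, 2853 ± 276 in VPA_OCA and 2580 ± 246 in VPA. Psat1 averaged 16.4 ± 5.56 in VPA_OCA and 16.6 ± 3.55 in VPA, and Phgdh 3.96 ± 2.87 in VPA_OCA and 5.25 ± 3.29 in VPA, counts too low to show a moderate change.

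None of the 8 branched-chain and lysine enzymes passed, and their pooled fold changes lay in the narrowest range of the 7 pathways, between -0.16 and 0.06. Aass, the bifunctional enzyme that opens lysine breakdown and the most abundant of the 8 per length, had 4455 to 7205 normalized counts in VPA_OCA (median 6512) and 5921 to 6752 in VPA (median 6179). The VPA_OCA range enclosed the VPA range. All 3 VPA_OCA libraries lay above the VPA libraries in numbers 1 to 3 (6755 or more against 5985 or less) and all 3 below them in numbers 4 to 6 (6269 or less against 6372 or more). The pooled log2 fold change was -0.03 ± 0.11 (adjusted p 0.97 by limma).

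Among the subunits of the branched-chain ketoacid dehydrogenase, Bckdha averaged 5627 ± 290 in VPA_OCA and 5908 ± 469 in VPA, Bckdhb 1251 ± 114 in VPA_OCA and 1274 ± 143 in VPA, and the core subunit Dbt 1465 ± 340 in VPA_OCA and 1517 ± 116 in VPA. Dbt had a fold change of 0.24 in numbers 1 to 3 and -0.40 in numbers 4 to 6. Downstream, Mccc1, a subunit of the leucine-pathway carboxylase, averaged 1046 ± 75.6 in VPA_OCA and 1116 ± 145 in VPA, and Aldh6a1, the methylmalonate semialdehyde dehydrogenase of valine breakdown, 6240 ± 881 in VPA_OCA and 6915 ± 487 in VPA. The propionyl-CoA carboxylase subunits were close to equal, Pcca at 1285 ± 87.2 in VPA_OCA and 1287 ± 179 in VPA and Pccb at 3471 ± 410 in VPA_OCA and 3320 ± 150 in VPA. The 95% interval of the Pcca fold change was -0.20 to 0.21. In numbers 1 to 3, 5 of the 8 fold changes were above zero, with a median of 0.06, and in numbers 4 to 6 all 8 were below zero, with a median of -0.16.

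In methionine and betaine metabolism, none of the 7 members passed over all 12 libraries, and the median fold change was 0.01. Gnmt, which uses surplus S-adenosylmethionine to methylate glycine, had 37440, 39950 and 37640 normalized counts in VPA_OCA replicates 1 to 3, against 35630, 40340 and 35660 in VPA replicates 1 to 3. In VPA_OCA replicates 4 to 6 it had 20550, 20650 and 19190, against 36970, 33350 and 33580 in VPA replicates 4 to 6. The first set thus overlapped, whereas in the second every VPA_OCA value was far below every VPA value. The VPA libraries of that set include replicates 4 and 5, which held skeletal muscle transcripts, and the part of these in the Gnmt values was not tested. Gnmt fell by 0.78 ± 0.12 on the log2 scale in numbers 4 to 6, or 1.72-fold lower, with an adjusted p of 0.0315 by limma, where 0.153% of all genes passed in that direction. In numbers 1 to 3 the fold change was 0.05 ± 0.16.

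Pooled, Gnmt averaged 29237 ± 10028 in VPA_OCA and 35922 ± 2564 in VPA, with a log2 fold change of -0.37 ± 0.20 and an adjusted p of 0.612 by limma. The difference between the sets was -0.83 ± 0.18, with an unadjusted p of 0.000363, the smallest among the members, and an adjusted p of 0.211 by limma. The 250 bases before the Gnmt start, on the minus strand at chr17:46729166-46729415 (RefSeq, GRCm38.p6), are shown with the same motifs in capitals.
Gnmt: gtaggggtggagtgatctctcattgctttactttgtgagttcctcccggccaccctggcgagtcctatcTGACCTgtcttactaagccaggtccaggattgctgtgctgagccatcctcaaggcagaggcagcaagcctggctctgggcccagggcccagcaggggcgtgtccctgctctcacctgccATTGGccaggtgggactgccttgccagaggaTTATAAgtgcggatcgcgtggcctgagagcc
The window held TGACCT, the half-site AGGTCA read on the opposite strand, beginning 181 bases before the start, the reverse of CCAAT beginning 62 bases before it and TTATAA beginning 31 bases before it.

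Mat1a and Ahcy, the enzymes before and after the methyl transfer, were also low in VPA_OCA replicates 4 to 6, without passing there. Mat1a had 50790 to 89080 normalized counts in VPA_OCA (median 75045) and 80600 to 93600 in VPA (median 87980). The VPA_OCA libraries numbered 4 to 6, at 50790 to 73830, lay below every VPA library, and so did VPA_OCA replicate 3 at 76260. Its log2 fold change was -0.27 ± 0.16 pooled (adjusted p 0.66 by limma), -0.10 in numbers 1 to 3 and -0.45 in numbers 4 to 6. Ahcy had 28280 to 73500 in VPA_OCA (median 48905) and 48660 to 66720 in VPA (median 60875). Here too the VPA_OCA libraries numbered 4 to 6 were the 3 lowest of all 12, at 28280 to 42610. The fold change was -0.28 ± 0.21 pooled (adjusted p 0.752 by limma), 0.10 in numbers 1 to 3 and -0.66 in numbers 4 to 6 (adjusted p 0.254 by limma). Together the 7 transcripts of the pathway took 0.701% to 0.950% of normalized counts in VPA_OCA replicates 4 to 6, against 1.08% to 1.18% in VPA replicates 4 to 6.

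In the betaine branch, Bhmt2, a paralog of betaine-homocysteine methyltransferase that uses S-methylmethionine, had 5189 to 6360 normalized counts in VPA_OCA (median 5275) and 4301 to 5173 in VPA (median 4563). Every VPA_OCA library lay above every VPA library, though only just at the closest pair, 5189 in VPA_OCA replicate 5 and 5173 in VPA replicate 4. The means were 5488 ± 458 in VPA_OCA and 4609 ± 321 in VPA, a log2 fold change of 0.25 ± 0.08 with an adjusted p of 0.274 by limma. Bhmt itself ranged widely, at 43585 ± 19505 in VPA_OCA and 37428 ± 9616 in VPA, and the 95% interval of its fold change was -0.43 to 0.73. How reads shared by these paralogs were counted is not given in the sources used here. Dmgdh and Sardh, the mitochondrial dehydrogenases that return methyl carbons of dimethylglycine and sarcosine to folate, averaged 8941 ± 299 in VPA_OCA and 8244 ± 841 in VPA, and 15838 ± 1881 in VPA_OCA and 15732 ± 1681 in VPA. Bhmt2 and Dmgdh start back to back on chromosome 13, with 130 bases between them, and the Dmgdh fold change was 0.12.

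All 5 proline and transaminase members had fold changes below zero, with a median of -0.23, and none passed. Gpt2, the mitochondrial alanine aminotransferase, had 5813 to 10410 normalized counts in VPA_OCA (median 8391) and 9080 to 14350 in VPA (median 11125). Its VPA_OCA libraries numbered 4 to 6, at 5813 to 6752, lay below all 6 VPA libraries, and those numbered 1 to 3, at 10030 to 10410, lay among them. The means were 8313 ± 2145 in VPA_OCA and 11106 ± 1879 in VPA, a log2 fold change of -0.44 ± 0.17 with an adjusted p of 0.359 by limma. It was -0.04 in numbers 1 to 3 and -0.84 in numbers 4 to 6 (adjusted p 0.0657 by limma), and the difference between these had an unadjusted p of 0.00143 and an adjusted p of 0.361 by limma. The 250 bases before the Gpt2 start, on the plus strand at chr8:85492326-85492575 (RefSeq, GRCm38.p6), held none of the motifs.
Gpt2: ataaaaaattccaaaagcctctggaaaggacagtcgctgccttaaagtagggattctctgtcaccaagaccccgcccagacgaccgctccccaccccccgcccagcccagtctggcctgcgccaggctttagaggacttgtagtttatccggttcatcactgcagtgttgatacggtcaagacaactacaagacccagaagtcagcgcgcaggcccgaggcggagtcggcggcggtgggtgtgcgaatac
Gnmt and Gpt2 are shown because they had the smallest adjusted p among the members that were lower in numbers 4 to 6.

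Prodh2, hydroxyproline dehydrogenase, had 3440 to 4616 normalized counts in VPA_OCA (median 4021) and 4122 to 4998 in VPA (median 4747). The VPA_OCA libraries reached lower in both sets, and in numbers 1 to 3 they did not overlap the VPA libraries. The log2 fold change was -0.23 ± 0.10 with an adjusted p of 0.455 by limma. Aldh4a1, the next enzyme of proline and hydroxyproline breakdown, averaged 9358 ± 1039 in VPA_OCA and 10183 ± 800 in VPA. The cytosolic alanine aminotransferase Gpt averaged 5746 ± 937 in VPA_OCA and 6383 ± 867 in VPA. Its fold change was 0.10 in numbers 1 to 3 and -0.41 in numbers 4 to 6, without overlap in the latter. Got1, cytosolic aspartate aminotransferase, averaged 5613 ± 1640 in VPA_OCA and 7441 ± 2962 in VPA, with a fold change of 0.14 in numbers 1 to 3 and -0.84 in numbers 4 to 6.

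Across the 45 members the fold changes leaned opposite ways in the library sets. In numbers 1 to 3, 33 of 45 fold changes were above zero with a median of 0.11, and in numbers 4 to 6, 32 of 45 were below zero with a median of -0.12. Over all 19006 genes, 9615 were above zero in numbers 1 to 3 and 9422 below zero in numbers 4 to 6, with medians of 0.0045 and 0.0025. Groups of 3 did not overlap for 11 members higher and 1 lower in numbers 1 to 3, where 9.99% and 8.62% of all genes did so. In numbers 4 to 6 that was 4 members higher and 13 lower, where 9.53% and 7.31% of all genes did so. By limma 3 members rose in numbers 1 to 3 (Amdhd1, Hal and Acmsd), where 0.637% of all genes passed, 0.384% higher. In numbers 4 to 6 Amdhd1 rose and Gnmt fell, where 0.5% of all genes passed, 0.347% higher and 0.153% lower. The difference between the sets was below zero for 40 of 45 members, with a median of -0.28. Over all genes it was below zero for 9565 of 19006, with a median of -0.0034. This difference passed for 0 members by limma, where 0.0105% of all genes passed, and 12 members had an unadjusted p under 0.05, beside 8.36% of all genes. Members of 1 pathway and of 1 liver share their source and are not independent.

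**Figure D4:**
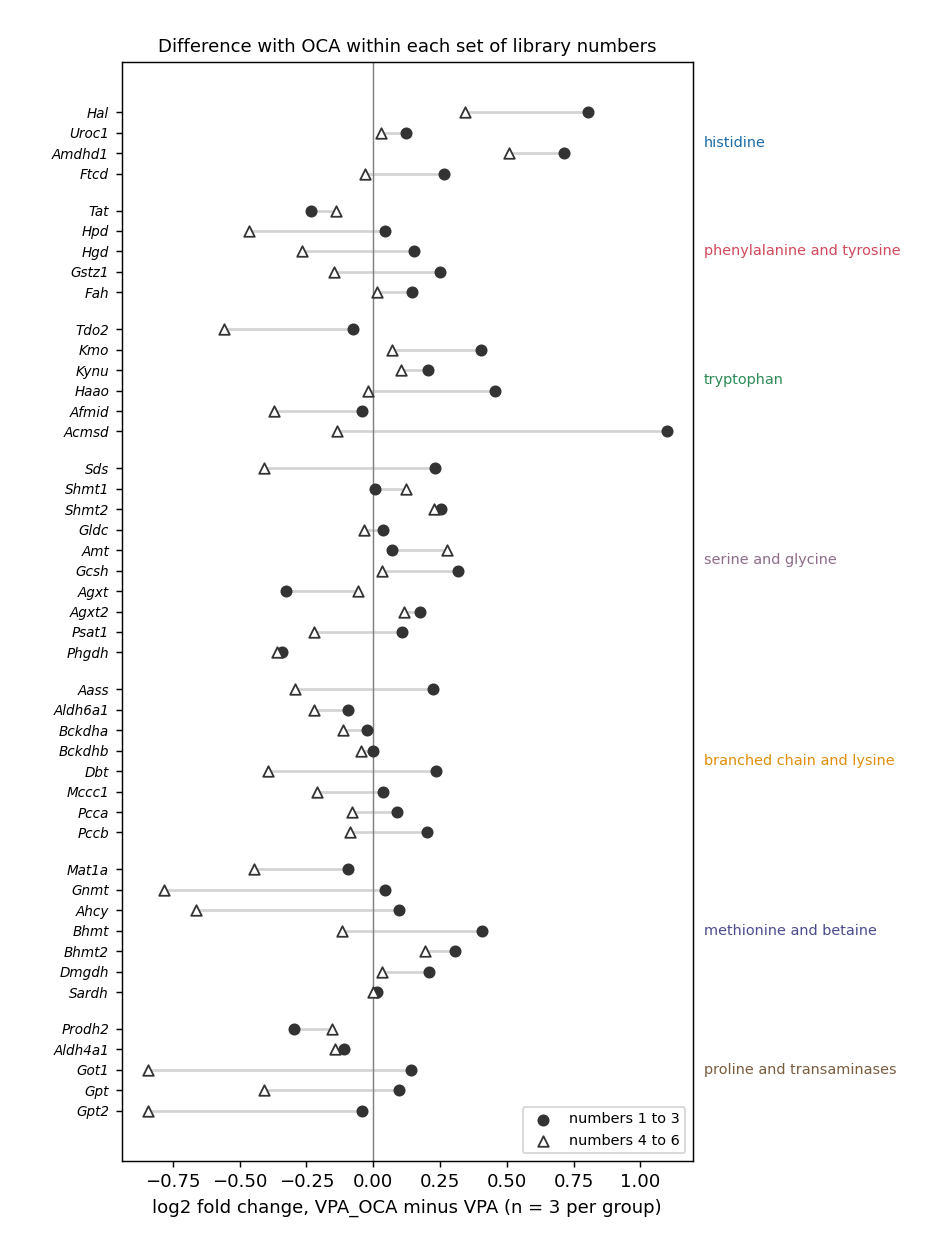
Log2 fold change of each member, VPA_OCA minus VPA, within libraries numbered 1 to 3 (filled circles) and 4 to 6 (open triangles), with 3 mice per group. For 40 of 45 genes the triangle lies left of the circle, farthest apart for Acmsd at 1.10 and -0.13. Over all genes the difference between the sets was below zero for 9565 of 19006.

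Summed marker levels of some other liver cells also differed between the groups in numbers 4 to 6. There the 6 endothelial markers summed to 53.3 to 86.0 FPKM in VPA_OCA and 98.0 to 105 FPKM in VPA, with a median log2 fold change of -0.61. The 6 stellate cell markers summed to 92.5 to 107 FPKM in VPA_OCA and 115 to 123 FPKM in VPA. The 6 cholangiocyte markers summed to 23.2 to 32.1 FPKM in VPA_OCA and 18.1 to 22.4 FPKM in VPA, but their median log2 fold change was 0.0047. Most of that sum was Spp1, at a mean of 25.0 FPKM in VPA_OCA and 17.6 FPKM in VPA (adjusted p 0.172 by limma). The other cholangiocyte markers ran from -0.30 for Krt7 to 0.32 for Krt19. For the 6 Kupffer cell markers the sums overlapped, at 108 to 159 FPKM in VPA_OCA and 156 to 234 FPKM in VPA. In numbers 1 to 3 the groups overlapped for all 4 of these lists. The endothelial sums there were 63.6 to 80.6 FPKM in VPA_OCA and 55.7 to 74.2 FPKM in VPA, and the Kupffer cell sums 95.3 to 162 FPKM in VPA_OCA and 81.3 to 118 FPKM in VPA, with median fold changes of 0.10 and 0.27. The 8 hepatocyte markers had median fold changes of 0.01 in numbers 1 to 3 and 0.03 in numbers 4 to 6. In numbers 1 to 3 their sums did not overlap, at 107791 to 123363 FPKM in VPA_OCA and 124308 to 150759 FPKM in VPA. Alb made up most of these sums, with a fold change of -0.30 (adjusted p 0.863 by limma). In numbers 4 to 6 the sums overlapped, at 161568 to 173330 FPKM in VPA_OCA and 143928 to 167197 FPKM in VPA. There Cps1 (-0.47) was lower and Trf (0.37) higher, each without overlap of the groups. The part of these marker lists in the members' values was not tested.

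The rest of these pathways was read from 111 further genes, of which 107 passed the filter. Of these, 1 rose and 3 fell by limma, where 0.442% of all genes rose and 0.279% fell. Gch1, whose product makes the tetrahydrobiopterin cofactor of phenylalanine hydroxylase, had 3758 to 4957 normalized counts in VPA_OCA (median 4257) and 2780 to 3679 in VPA (median 3048). The groups did not overlap. Its log2 fold change was 0.46 ± 0.10 with an adjusted p of 0.046 by limma, a call kept in only 3 of the 12 fits that left out a library (without VPA replicate 1, VPA_OCA replicate 4 or VPA_OCA replicate 6) and lost in the other 9, where it reached 0.116.

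The genes that fell were all amino acid transporters, 3 of 17 listed, beside 0.279% of all genes. Within numbers 1 to 3 alone 1 of the 17 fell by limma, beside 48 of all 19006 genes. Within numbers 4 to 6 alone 0 of the 17 passed by limma. There 7 had an unadjusted p under 0.05 by limma, beside 2145 of all 19006 genes. Slc16a10, a carrier of aromatic amino acids, had 953 to 1622 normalized counts in VPA_OCA (median 1401) and 1950 to 2625 in VPA (median 2308), without overlap. It fell by 0.73 ± 0.12 on the log2 scale, with an adjusted p of 0.008 by limma, and passed in all 12 fits that left out a library. Slc1a2, a glutamate transporter of pericentral hepatocytes, had 1220 to 2209 in VPA_OCA (median 2007) and 2436 to 3322 in VPA (median 3234), again without overlap. It fell by 0.72 ± 0.13 (adjusted p 0.0161 by limma), and the call was lost without VPA replicate 3 (0.0507) or VPA replicate 6 (0.0519). Slc1a5, a carrier of glutamine and other neutral amino acids, was low throughout, at 28.5 to 69.5 in VPA_OCA (median 45.1) and 68.5 to 108 in VPA (median 83.6). It fell by 0.93 ± 0.19 (adjusted p 0.0367 by limma) and passed in only 2 of the 12 fits that left out a library, those without VPA replicate 6 and without VPA_OCA replicate 6, reaching 0.0931 in the other 10.

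Slc1a2 also stands among the 10 pericentral hepatocyte markers, of which Rhbg, an ammonia transporter, fell as well (-0.71, adjusted p 0.0333 by limma). The Rhbg call was lost in 7 of the 12 fits that left out a library, namely when VPA_OCA replicate 3, 4 or 5, or else VPA replicate 1, 4, 5 or 6, was omitted, where adjusted p reached 0.0884 by limma. The list thus held 2 markers that fell with group alone, beside 0.279% of all genes. Its sum was 3165 to 5605 FPKM in VPA_OCA and 4402 to 7784 FPKM in VPA, with a median fold change of -0.26. Most of that sum was Cyp2e1, at means of 3437 FPKM in VPA_OCA and 4339 FPKM in VPA. Cyp2e1 (-0.36), Tbx3 (-0.31), Gulo (-0.21), Glul (-0.08) and Cyp1a2 (-0.03) did not pass. Lgr5 (0.05) and Axin2 (0.06) lay above zero. The part of these markers in the transporter values was not tested. With the replicate block or the library-number term Oat, ornithine aminotransferase, which feeds ornithine towards proline and is itself on the pericentral list, fell too. It averaged 7323 ± 2573 normalized counts in VPA_OCA and 12525 ± 1692 in VPA, a fold change of -0.84 ± 0.20, with adjusted p 0.0773 by limma for group alone, 0.0157 with the block and 0.018 with the library-number term. That term also brought Glyctk (glycerate kinase, 0.30), Gamt (guanidinoacetate methyltransferase, which makes creatine, 0.31) and Hoga1 (4-hydroxy-2-oxoglutarate aldolase, 0.30) past the threshold, all higher in VPA_OCA. With that term 2.13% of all genes passed, 1.34% higher. None of these 3 genes passed with group alone or in the replicate block. In the 12 fits that left out a library their adjusted p was 0.134 or more by limma.

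In the other lists nothing passed with group alone. The genes with the smallest p in them were Cndp2 (a dipeptidase) at 0.17, Aadat (kynurenine aminotransferase) at 0.13, Bcat2 (mitochondrial branched-chain aminotransferase) at 0.32, Pemt (phosphatidylethanolamine methyltransferase, a large user of S-adenosylmethionine) at 0.27, Mthfs (5-formyltetrahydrofolate cyclo-ligase) at 0.31 and the transcription factor Foxo1 at -0.35 on the log2 scale. Pemt averaged 9187 ± 1167 normalized counts in VPA_OCA and 7579 ± 792 in VPA, with a 95% interval of the fold change of 0.05 to 0.50 and an adjusted p of 0.392 by limma. None of 18 folate one-carbon genes and none of 16 measured regulators passed. All 3 further histidine genes were above zero, between 0.05 and 0.25, and none passed. Besides Cndp2 these were Hdc and Carns1, both low at means of 1.08 and 0.314 FPKM. Hdc was at -0.13 in numbers 4 to 6 and Carns1 at -0.03 in numbers 1 to 3.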

How the data were processed

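Liver RNA of 12 mice (6 VPA_OCA, 6 VPA) was extracted with Trizol and made into TruSeq libraries, per the labels' protocols. Groups and numbers were read from the sample titles, and the design text gives 6 mice per treatment. The submitters' processing notes name edgeR and the build GRCm38.p5. How reads were aligned, assigned to genes and treated for strand is not given in the sources used here. The deposited values were normalized counts, a signal per gene that the authors made by scaling each library, per the file headers. The authors' FPKM values served to compare genes per length. The deposited p-values and adjusted p-values are the authors' own, and a deposited GC fraction per gene was not used. Cells with a misread decimal (89 normalized counts, 129 FPKM values, 238 p-values and 88 adjusted p-values) were divided back. A recomputation of the adjusted p-values, over the 12517 genes marked present by the authors, then came within 0.538% of theirs. All per-sample columns were matched to samples by title, with 0 left unused.

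The 19006 genes that reached a normalized count of 1 in 6 or more libraries were kept. They were compared as log2(value + 1), a scale that understates changes of low genes, with limma 3.58.1 in R 4.3.3 (intensity trend, group as the only term, 2-sided, Benjamini-Hochberg). Intervals are 95% intervals of the limma fit. The fit was tested on simulated data. The simulated counts were drawn independently for each library and without the number sets, so that test does not cover the sets. Other fits had a term for library numbers 1 to 3 against 4 to 6, its interaction with group, or a replicate block. Same-numbered libraries of the 2 groups deviated together (correlations 0.150 to 0.478 over genes for the 6 pairs), all past a limit of 0.1 set for a pairing. The replicate block would take up a pairing by number, and the main fit has no such term. Only 2 of the 6 numbers had the same number as their best match in the other group. The other 4 matched another number better, so any pairing is weak. The labels give no pairing. Every best match lay within the same set, numbers 1 to 3 or 4 to 6. The deviations were taken from group means with the sets left in, so these correlations cannot tell a pairing from the sets. P-values measure the spread between these mice only.

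The members, the gene and marker lists and the number sets were chosen with earlier results of these data known. Every member is named. Values were given in full for members past the threshold with group alone or with the library-number term, the 12 with the smallest p, and the most abundant in each pathway per length. Among the further genes, those past the threshold and the first by p in each remaining list were named. The marker Tf was read as Trf through RefSeq synonyms. Promoter windows were RefSeq's, and 40 of 45 members had one. Alternatives were other filters, scalings, pseudocounts of 0.1 and 5, variance models, thresholds, FPKM, and libraries left out. Figures were drawn with matplotlib 3.10.9.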

Additional observations from a re-analysis of the deposited data

Results flagged for a closer look

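Each member's 6 values in each group were checked for a library standing apart, by the gap to its nearest neighbour over the whole range. Of 90 groups of values 2 were past Dixon's 95% limit, where chance gives about 1 in 20. Phgdh in VPA_OCA replicate 6 had 9.34 normalized counts, with the other 5 VPA_OCA libraries at 1.07 to 4.16, all close to the detection limit. Dmgdh in VPA replicate 4 had 9909 normalized counts, with the other 5 VPA libraries at 7569 to 8181.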

How the results depend on the processing

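The count of 1 member past the threshold (Amdhd1) was the same under the other filters, scalings, pseudocounts and thresholds, with FPKM, with no intensity trend, in the replicate block, without VPA replicates 4 and 5, and in the fits without 1 library each (1 to 1). It was 2 with array weights and 2 with the library-number term (Hal added in both), 3 in numbers 1 to 3 alone and 2 in numbers 4 to 6 alone. Over all genes 137 passed, 210 in the replicate block (128 of them shared), 404 with the library-number term, 223 at an adjusted p under 0.10, 62 under 0.01, and 92 to 146 without 1 library each. Of the further pathway genes 4 passed, 5 in the replicate block, 8 with the library-number term, 2 with no filter and 1 with no intensity trend. In numbers 1 to 3 alone 1 of them passed, and in numbers 4 to 6 alone 0. In numbers 4 to 6, 21 had an unadjusted p under 0.05 by limma, beside 2145 of all 19006 genes. Without VPA replicates 4 and 5, 2 passed, with 1 at an adjusted p under 0.01 and 1 to 4 without 1 library each. The replicate block changed no call among the members. The cause of these shifts was not tested. No member value past the threshold changed sign. Signs changed in 59 of 1212 values, all of them not past the threshold, in 22 members. Outside the number sets alone, sign changes occurred in 13 members, and in 0 of the 24 members beyond 0.15 on the log2 scale. Median-ratio scaling moved the median of all genes by -0.0084. Depth limits Phgdh and Psat1, which had few reads.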
